A study of Mus musculus with 12 samples.

Results

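Retinoid handling was followed through 9 genes in carotid arteries of Poldip2-/- and control mice. Stra6 encodes the cell surface receptor that takes up retinol, and Rbp4 encodes the plasma protein that carries it. Rdh10 encodes an enzyme that oxidizes retinol to retinaldehyde, and Aldh1a1, Aldh1a2 and Aldh1a3 encode the enzymes that oxidize retinaldehyde to retinoic acid. Rara, Rarb and Rarg encode the nuclear receptors of retinoic acid. These 9 genes are 9 of the 35275 genes of the table and were found by their symbols. The set was selected on its group FPKM, because Stra6 and Aldh1a2 were lower in knockout arteries, so the genotype values below describe the genes and test nothing.

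Poldip2-/- mice lacked exon 4 of Poldip2 in all tissues, and the line derived from 1 targeted embryonic stem cell clone. Exon 4 had been flanked by loxP sites and was removed by a Cre transgene active in early embryos, which was afterwards bred out. Control mice were littermates, and both genotypes were C57BL/6 mice aged 10 weeks and fed standard chow. Endothelial-enriched RNA, here the endothelial layer, was flushed from the lumen with a lysis reagent, and the medial layer was all that remained of the vessel, that is media and adventitia together. The labels list 12 samples, which are 2 endothelial and 4 medial samples of Poldip2-/- mice, and 2 endothelial and 4 medial samples of control mice. The design and methods give 4 mice per genotype for both layers, so how many mice stand behind each endothelial value is unclear. The values used were 1 deposited FPKM value per gene and group (fragments scaled by transcript length and library size), so that no spread between mice, no test and no depth per library could be given for any value below.

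Retinoic acid is made inside cells from circulating vitamin A. The product binds its receptors, which sit on DNA as pairs with retinoid X receptors at repeated short half-sites and switch nearby genes on or off. In vessels, retinoic acid is known to slow growth of smooth muscle cells and to favour their contractile state. Receptor targets include genes of the pathway itself, such as Rarb, Stra6 and Cyp26a1.

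The 3 upstream sequences below were chosen because Stra6 and Aldh1a2 had the lowest ratios of the 9 genes in the endothelial and medial layers, while Rarb carried the only receptor motif found. Each is the 250 bases before a transcript's first base in RefSeq on GRCm38.p6, written 5′ to 3′ on the strand of the gene, with the 2 half-sites of a matched pair in capitals. They lie at chr9:58128838-58129087 (Stra6, plus strand, the first of its 4 windows), chr9:71215539-71215788 (Aldh1a2, plus strand) and chr14:16575477-16575726 (Rarb, minus strand).
Stra6: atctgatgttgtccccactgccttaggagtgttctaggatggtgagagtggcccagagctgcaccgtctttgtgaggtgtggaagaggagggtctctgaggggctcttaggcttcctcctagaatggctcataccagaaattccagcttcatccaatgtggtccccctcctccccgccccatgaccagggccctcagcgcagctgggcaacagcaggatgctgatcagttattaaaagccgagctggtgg
Aldh1a2: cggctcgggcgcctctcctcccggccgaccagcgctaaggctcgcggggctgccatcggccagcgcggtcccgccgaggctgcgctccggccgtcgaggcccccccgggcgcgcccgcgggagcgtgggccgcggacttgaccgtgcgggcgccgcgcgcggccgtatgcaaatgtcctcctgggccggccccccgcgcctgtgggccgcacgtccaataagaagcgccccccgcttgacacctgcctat
Rarb: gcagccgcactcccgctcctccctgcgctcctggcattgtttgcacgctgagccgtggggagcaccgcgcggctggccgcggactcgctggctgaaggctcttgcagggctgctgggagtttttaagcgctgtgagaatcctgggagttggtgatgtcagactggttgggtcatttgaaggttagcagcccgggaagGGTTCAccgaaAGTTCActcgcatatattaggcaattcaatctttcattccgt

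Of the 9 genes, 7 had RefSeq windows, 16 in all, and each window of 300 bases (250 before the start and 50 after it) was searched on both strands. The motifs were 2 half-sites in the same direction, each of them AGGTCA or one of the variants AGTTCA and GGGTCA and also GGTTCA, separated by 1, 2 or 5 bases. Rarb had a pair 5 bases apart, 53 to 37 bases before the start. This motif was present in 0.0974% of 32851 windows of all genes, against 0.222% for a gap of 1 base and 0.268% for a gap of 2 bases. No pair was found in the windows of Stra6, Rbp4, Aldh1a1, Aldh1a2, Rara and Rarg. The sequences of Aldh1a2 and Stra6 differed in composition. Aldh1a2 had 77.6% G and C and 40 CpG dinucleotides, while the Stra6 sequence shown had 56.4% and 4, beside a median over all upstream sequences of 52.4% and 6.

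Poldip2 itself, the targeted gene, had 8.27 FPKM in Poldip2-/- and 21.1 FPKM in control endothelial layers, and 10.3 FPKM in Poldip2-/- and 35.9 FPKM in control medial layers. Endothelial markers summed to 5173 and 4917 FPKM in Poldip2-/- and control endothelial layers, and to 158 and 241 FPKM in the medial layers. Low values had a different floor in each group. For 1781 olfactory and vomeronasal receptor genes, which arteries are not known to use, the 95th percentile was 0.0685 FPKM in Poldip2-/- and 0.320 FPKM in control endothelial layers, and 0.0134 FPKM in Poldip2-/- and 1.51 FPKM in control medial layers. A value at or below this percentile is read as not above background. Genes with a mean of at least 1 FPKM over the groups compared were examined. A gene is called higher or lower when FPKM + 1 differed by at least 2-fold, that is by 1 on the log2 scale. All log2 ratios below are of FPKM + 1, while folds and percentages are of FPKM with nothing added.

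In the endothelial layer, Stra6 and Aldh1a3 were called lower in Poldip2-/- mice and no member was called higher, with all 9 members examined. Over the whole table, 1.44% of 11514 genes were called lower and 0.434% higher in this layer. In the medial layer, Aldh1a1, Aldh1a2 and Aldh1a3 were called lower and none of the 8 members examined was called higher, against 14.3% lower and 7.22% higher of 13082 genes. The rule used these contrasts, so nothing is read from the shares. The median log2 ratio was -0.11 over the 9 members and 0.05 over all genes examined in the endothelial layer, and -0.51 over the 8 members and -0.17 over all genes in the medial layer. Nearest to the threshold were Aldh1a3 just inside it at -1.07 and Aldh1a2 just outside it at -0.96 in the endothelial layer, and Rbp4 just outside it at -0.91 in the medial layer.

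**Figure D1:**
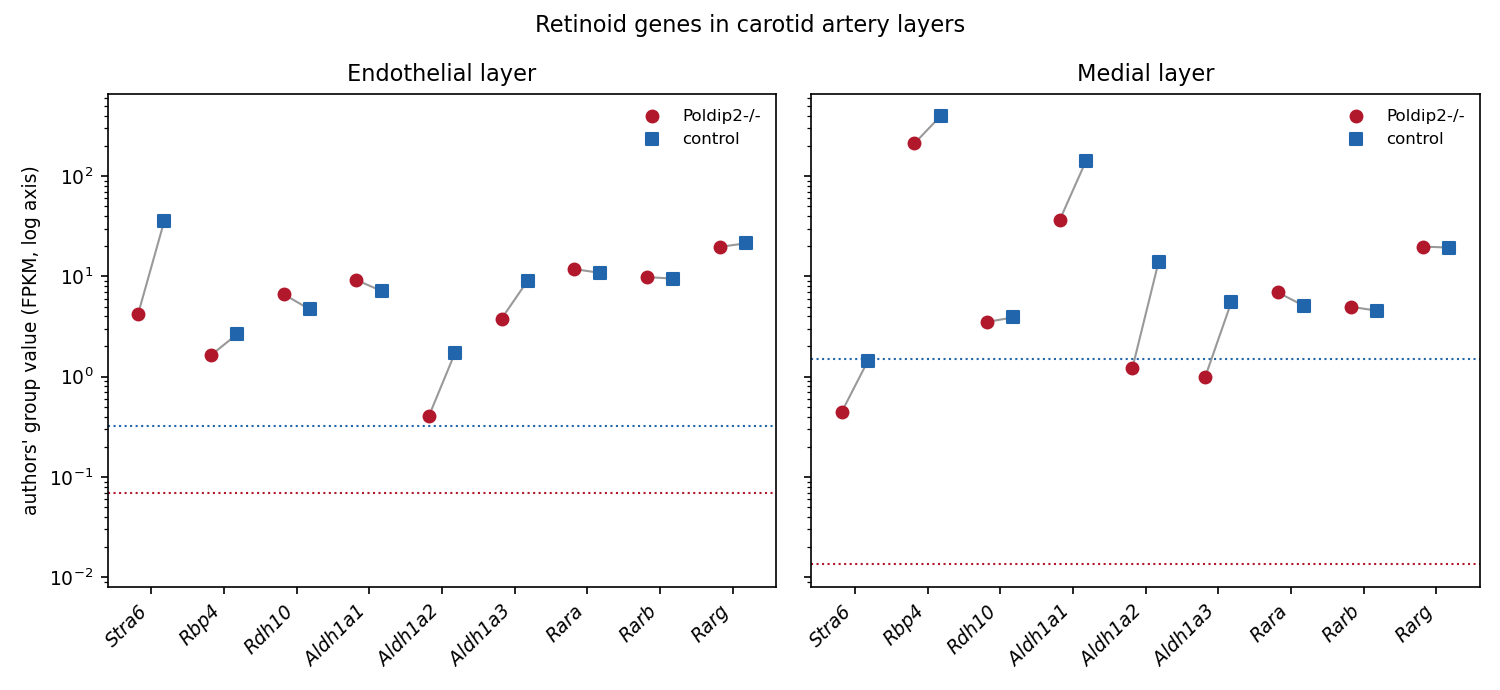
FPKM of the 9 retinoid genes (log axis) in Poldip2-/- (circles) and control (squares) endothelial and medial layers, 1 authors' value per group, with no error bars because no replicate values were used. Dotted lines mark the 95th percentile of olfactory and vomeronasal receptor genes in the group of the same colour, and Stra6 in control medial layers (1.44 FPKM) lies below its line (1.51 FPKM).

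Stra6 (chr9:58063788-58153996, plus strand, GRCm38) had 4.25 FPKM in Poldip2-/- endothelial layers, against 35.9 FPKM in control endothelial layers. The retinol receptor was thus 8.45-fold lower, with 11.8% of the control value left, a log2 ratio of -2.81. Only 1 of the 11514 genes examined had a lower ratio, the short immunoglobulin segment Ighd5-1, which was singled out after its value was seen. On the authors' scaled mean counts, Stra6 had 260 in Poldip2-/- and 2184 in control endothelial layers. In medial layers it had 0.446 FPKM in Poldip2-/- mice and 1.44 FPKM in control mice. The control value is not above background and the mean was under 1 FPKM, so that no medial difference is read for Stra6. The gene's span overlaps Ccdc33 on the opposite strand over 55036 bases, and the library kit does not mark strand. It also overlaps Gm16131 over 1175 bases. Ccdc33 had at most 0.386 FPKM and Gm16131 at most 0.0163 FPKM in any group. How reads in the shared bases were assigned was not tested.

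Rbp4 (chr19:38116620-38125321, minus strand) showed the reverse pattern of layers. The retinol carrier had 211 FPKM in Poldip2-/- and 398 FPKM in control medial layers, a 1.88-fold difference with a log2 ratio of -0.91. In endothelial layers it had 1.64 FPKM in Poldip2-/- and 2.65 FPKM in control mice, with a log2 ratio of -0.47. Neither reached the 2-fold threshold. In plasma most of this protein comes from liver, and fat tissue makes it as well.

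Of the enzymes of synthesis, Rdh10 (chr1:16105774-16133734, plus strand) differed least between genotypes in the medial layer. Rdh10 had 6.65 FPKM in Poldip2-/- and 4.69 FPKM in control endothelial layers, and 3.52 FPKM in Poldip2-/- and 3.90 FPKM in control medial layers. Its log2 ratios were 0.43 and -0.12, and the medial one turned to 0.05 when all ratios were centred on the median gene. The step from retinol to retinaldehyde, as far as Rdh10 carries it, had no call in either layer.

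Aldh1a1 (chr19:20601961-20643462, plus strand), the most abundant of the 3 retinaldehyde dehydrogenases in medial layers, had 36.6 FPKM in Poldip2-/- and 142 FPKM in control medial layers. It was 3.86-fold lower there, with a log2 ratio of -1.92. In endothelial layers the ratio pointed the other way, at 0.33, with 9.20 FPKM in Poldip2-/- and 7.10 FPKM in control mice. The difference of the log2 ratios, medial minus endothelial, was -2.25 and was not tested.

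Aldh1a2 (chr9:71215789-71296243, plus strand), the main retinoic acid making enzyme of the embryo, had 1.23 FPKM in Poldip2-/- and 14.1 FPKM in control medial layers. This 11.4-fold difference, a log2 ratio of -2.76, was the largest of any member in this layer, and 48 of 13082 genes had a lower ratio. The scaled mean counts behind it were 52.0 in Poldip2-/- and 511 in control medial layers. In endothelial layers Aldh1a2 had 0.405 FPKM in Poldip2-/- and 1.74 FPKM in control mice, 4.29-fold lower. The scaled mean counts were 18.5 in Poldip2-/- and 77.7 in control mice. That comparison passed the minimum only through the control value, and its log2 ratio of -0.96 fell short of a call because 1 was added to each small value. With 0.1 added it was -1.86. Stra6 and Aldh1a2 lie 13.1 Mb apart on chromosome 9.

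Aldh1a3 (chr7:66390892-66427517, minus strand) was called lower in both layers. It had 3.79 FPKM in Poldip2-/- and 9.09 FPKM in control endothelial layers, 2.40-fold lower with a log2 ratio of -1.07. In medial layers it had 0.992 FPKM in Poldip2-/- and 5.54 FPKM in control mice, 5.59-fold lower with a log2 ratio of -1.72. Only the control value was above 1 FPKM there. With a minimum mean of 5 FPKM Aldh1a3 was no longer among the medial calls, which were then 2, against 10.1% of all genes lower.

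Summed over the 3 dehydrogenases, the level was 38.9 FPKM in Poldip2-/- and 161 FPKM in control medial layers, 4.15-fold lower. In endothelial layers the sum was 13.4 FPKM in Poldip2-/- and 17.9 FPKM in control mice, 1.34-fold lower. The make-up of the sum differed as well. Aldh1a1 held 68.7% of the endothelial sum in Poldip2-/- mice and 39.6% in control mice, while Aldh1a3 held 28.3% in Poldip2-/- mice and 50.7% in control mice. In medial layers Aldh1a1 held 94.3% in Poldip2-/- and 87.8% in control mice.

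**Figure D2:**
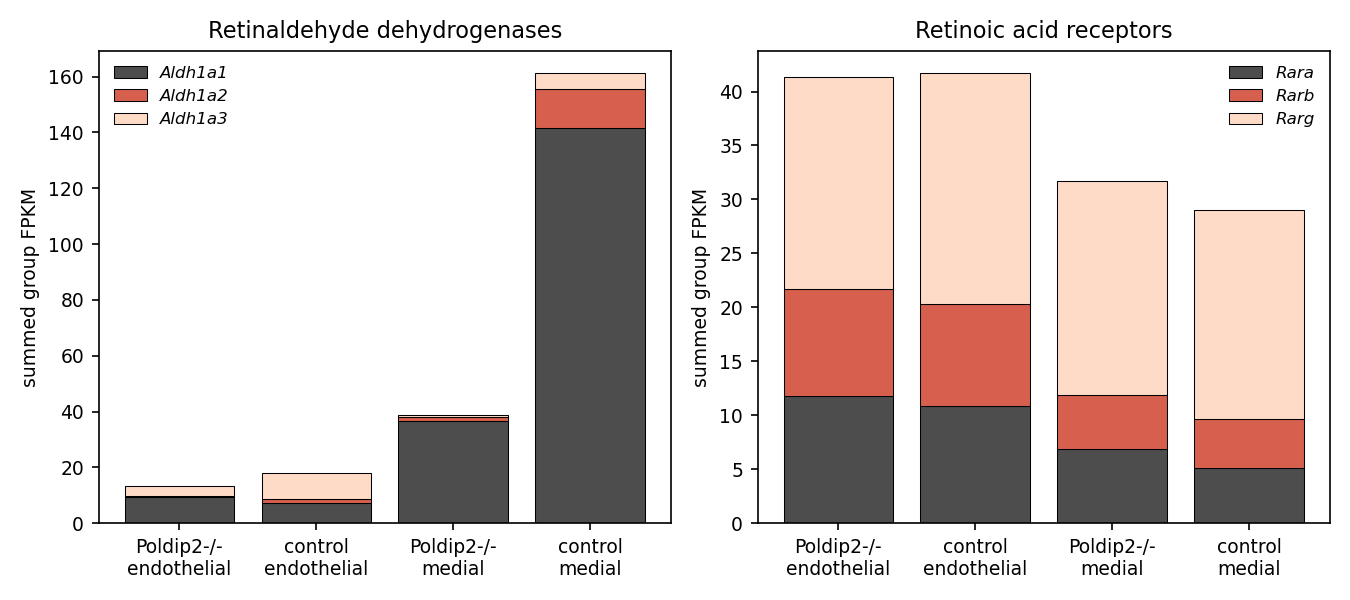
Summed group FPKM (axes from 0) of the retinaldehyde dehydrogenases, left, and of the retinoic acid receptors, right, in the 4 groups, with each gene as a segment. The dehydrogenase sum is 38.9 FPKM in Poldip2-/- and 161 FPKM in control medial layers, while the receptor sum lies between 29.0 and 41.7 FPKM in all groups.

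No receptor was called higher or lower between genotypes. Rarg (chr15:102234938-102257517, minus strand) had 19.7 FPKM in Poldip2-/- and 21.4 FPKM in control endothelial layers, and 19.8 FPKM in Poldip2-/- and 19.4 FPKM in control medial layers. Rara (chr11:98927818-98974942, plus strand) had 11.8 FPKM in Poldip2-/- and 10.8 FPKM in control endothelial layers, and 6.91 FPKM in Poldip2-/- and 5.09 FPKM in control medial layers. Rarb (chr14:16430842-16575472, minus strand), a textbook target of its own ligand, had 9.85 FPKM in Poldip2-/- and 9.50 FPKM in control endothelial layers, and 4.98 FPKM in Poldip2-/- and 4.56 FPKM in control medial layers. Their log2 ratios ran from -0.11 to 0.12 in the endothelial layer and from 0.03 to 0.38 in the medial layer. The medial ratio of Rara, 0.38, was larger under every alternative, from 0.44 to 0.66, and that of Rarb reached 0.34 on scaled counts. The endothelial ratio of Rarb, 0.05, turned to -0.03 when ratios were centred by gene length. Summed receptor levels were 41.3 FPKM in Poldip2-/- and 41.7 FPKM in control endothelial layers, and 31.7 FPKM in Poldip2-/- and 29.0 FPKM in control medial layers. Without replicate values, equality of these levels was not shown.

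**Figure D3:**
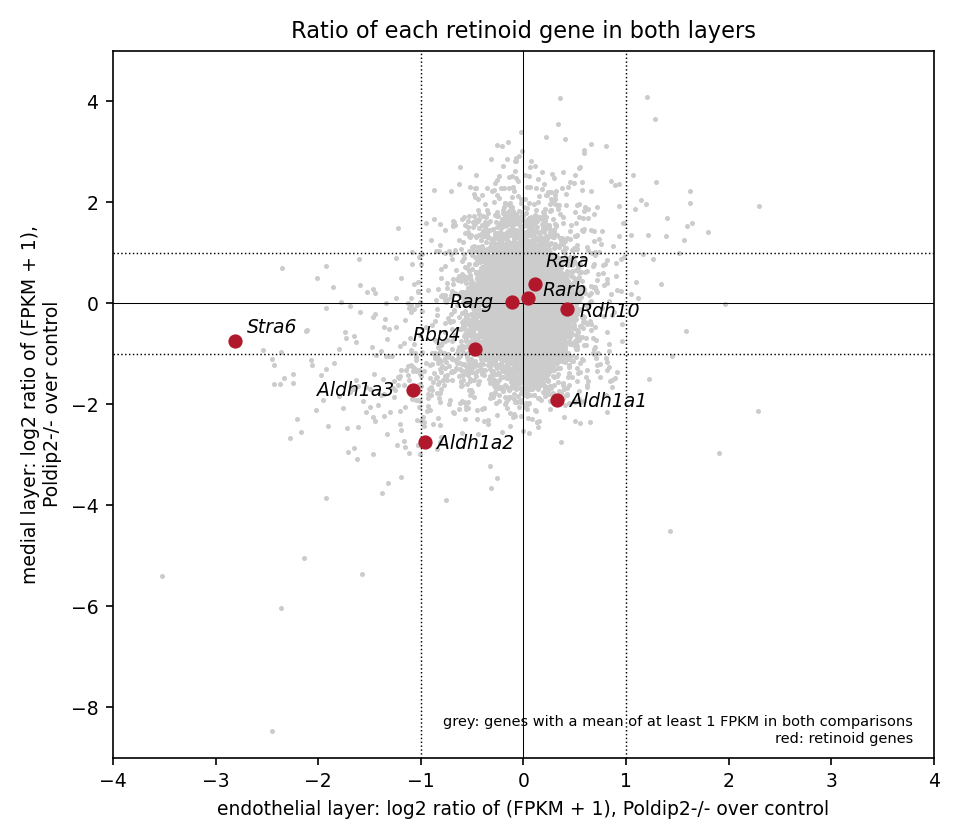
Log2 ratio of FPKM + 1, Poldip2-/- over control, in the endothelial layer (x axis) and the medial layer (y axis) for the 9 retinoid genes (red) and 10920 genes with a mean of at least 1 FPKM in both comparisons (grey), with dotted lines at 2-fold. Stra6 lies far to the left (-2.81), Aldh1a1 and Aldh1a2 lie low (-1.92 and -2.76), and the 3 receptors lie near the centre. Stra6 is drawn although its medial mean was under 1 FPKM, so its place on the y axis is not read.

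The layers themselves differed in which retinoid genes they held. In control mice, Rbp4, Aldh1a1 and Aldh1a2 were called higher and Stra6 lower in medial than in endothelial layers, against 20.2% higher and 12.1% lower of 13354 genes. Rbp4 was 150-fold, Aldh1a1 19.9-fold and Aldh1a2 8.10-fold higher in the medial layer. Rbp4 had the highest log2 ratio between control layers of all genes examined, 6.77. Stra6 was 24.9-fold lower in medial than in endothelial layers of control mice, at a medial value not above background. In Poldip2-/- mice, Rbp4 and Aldh1a1 were called higher and Stra6 and Aldh1a3 lower in medial layers, against 14.1% higher and 13.3% lower of 12140 genes. Rbp4 was 129-fold higher and Aldh1a1 3.98-fold higher there, and Stra6 was 9.52-fold lower. Aldh1a2 had too low a mean in Poldip2-/- layers to be examined. Uptake and carrier genes were thus highest in opposite layers in both genotypes. The order of the members within a group followed. In control endothelial layers Stra6 was the highest of the 9 and Aldh1a2 the lowest, in Poldip2-/- endothelial layers Rarg was the highest and Aldh1a2 the lowest, and in medial layers of both genotypes Rbp4 was the highest and Stra6 the lowest. No neighbours in these orders can be separated by a spread.

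The rest of the pathway was read from 6 further gene lists. Over all genes examined, 1.44% were called lower and 0.434% higher in the endothelial layer, and 14.3% lower and 7.22% higher in the medial layer. Counts of calls per list were not tested against these shares and are not read as changes of a list. Among genes of retinoid binding and storage, 0 of 7 examined were called in the endothelial layer, with a median log2 ratio of 0.06. In the medial layer 1 of 8 was called higher and 4 lower, against 7.22% and 14.3% of all genes, with a median of -0.89. Rbp7, a retinol binding protein of fat and its vessels, had 0.427 FPKM in Poldip2-/- and 3.73 FPKM in control medial layers. Fabp5, a carrier that can bring retinoic acid to another receptor, had 3.06 FPKM in Poldip2-/- and 7.35 FPKM in control medial layers. Lipe, a lipase that releases stored retinol and fat, had 7.04 FPKM in Poldip2-/- and 16.7 FPKM in control medial layers. The carotenoid cleaving gene Bco2 had 0.389 FPKM in Poldip2-/- and 1.88 FPKM in control medial layers. Rbp7 and Bco2 passed the minimum only through the control value, which favours a lower call. The control value of Bco2 lay close to the control medial background of 1.51 FPKM. Lrp1, a large endocytic receptor, was called higher, with 49.1 FPKM in Poldip2-/- and 15.1 FPKM in control medial layers. Crabp1, Crabp2 and Lrat, which bind retinoic acid or store retinol as esters, had at most 0.672 FPKM in any group.

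Of the further enzymes that oxidize or reduce retinol or retinaldehyde, 0 of 11 were called in the endothelial layer, with a median of 0.15. Of 10 in the medial layer, 2 were called lower, against 14.3% of all genes, and the median was -0.11. The 2 were Adh1 and Adh7, which can oxidize retinol among other alcohols. Adh1 had 19.4 FPKM in Poldip2-/- and 55.2 FPKM in control medial layers, but 280 FPKM in Poldip2-/- and 183 FPKM in control endothelial layers. Adh7 had 4.00 FPKM in Poldip2-/- and 15.3 FPKM in control medial layers, but 195 FPKM in Poldip2-/- and 148 FPKM in control endothelial layers. Dhrs3, which turns retinaldehyde back into retinol and is a textbook target of retinoic acid, had 62.0 FPKM in Poldip2-/- and 34.1 FPKM in control medial layers, a log2 ratio of 0.85, and 21.9 FPKM in Poldip2-/- and 19.8 FPKM in control endothelial layers.

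The Cyp26 enzymes, which break retinoic acid down, were scarce. Cyp26a1, Cyp26b1 and Cyp26c1 reached at most 1.39 FPKM, the value of Cyp26b1 in Poldip2-/- medial layers. Cyp1b1, a cytochrome that acts on retinoids and steroids, was listed beside them, and its value is not read as breakdown of retinoic acid. It was the 1 gene of this list examined in the endothelial layer and was called higher. Cyp1b1 had 100 FPKM in Poldip2-/- and 32.7 FPKM in control endothelial layers, a log2 ratio of 1.58. In medial layers it had 37.6 FPKM in Poldip2-/- and 55.5 FPKM in control mice.

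The retinoid X receptors and the other nuclear receptors listed with them showed no call in the endothelial layer (0 of 10, with 5 ratios above and 5 below 0). Of 11 in the medial layer, 2 were called higher, against 7.22% of all genes, and the median was 0.26. Rxra had between 7.35 and 8.39 FPKM in the 4 groups and Rxrb between 12.7 and 23.8 FPKM, while Rxrg had at most 1.49 FPKM, not above background in control medial layers. The 2 called genes were the thyroid hormone receptors, Thra with 63.9 FPKM in Poldip2-/- and 29.8 FPKM in control medial layers, and Thrb with 10.6 FPKM in Poldip2-/- and 3.38 FPKM in control medial layers. Of 14 corepressors and coactivators, 0 were called in the endothelial layer, with a median of -0.07. Medial ratios had a median of 0.54, and, against 7.22% of all genes, 3 were called higher. They were Crebbp and Kmt2a, which modify histones, and Ncor1, a corepressor of unliganded receptors, with log2 ratios of 1.13, 1.37 and 1.25.

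Among textbook targets of retinoic acid, 18 were examined in each layer. In the endothelial layer Stra6, itself on this list, was the only one called, with a median of 0.03. In the medial layer 4 were called higher and 2 lower, against 7.22% and 14.3% of all genes, with a median of 0.38. Those higher were Tgm2, a transglutaminase, with 189 FPKM in Poldip2-/- and 66.5 FPKM in control medial layers, Ucp1, the uncoupling protein of brown fat, and the transcription factor genes Hoxa5 and Meis1, with log2 ratios of 1.49, 1.33, 1.05 and 1.05. Those lower were Thbd and Plat, which encode thrombomodulin and tissue plasminogen activator, with log2 ratios of -1.02 and -1.07.

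Markers of cell types differed between genotypes beside the retinoid genes. In bulk samples, fewer cells of a type and less RNA per cell cannot be told apart. Counts of markers called, here and below, stand beside shares over all genes of 1.44% lower and 0.434% higher in the endothelial layer. In the medial layer the shares were 14.3% lower and 7.22% higher. Fibroblast markers summed to 9872 FPKM in Poldip2-/- and 22712 FPKM in control medial layers, and 12 of 16 were called lower, with ratios from -2.94 to 0.69 and a median of -1.32. In endothelial layers they summed to 1549 FPKM in Poldip2-/- and 2572 FPKM in control mice, and 11 of 16 were called lower, with a median of -1.27. Smooth muscle markers summed to 27029 FPKM in Poldip2-/- and 6720 FPKM in control medial layers, with 14 of 14 called higher. They summed to 630 FPKM in Poldip2-/- and 266 FPKM in control endothelial layers, with 4 of 11 called higher. Leukocyte markers summed to 894 FPKM in Poldip2-/- and 3794 FPKM in control medial layers, with 10 of 11 called lower. Fat cell markers summed to 714 FPKM in Poldip2-/- and 2511 FPKM in control medial layers, with 8 of 12 called lower and 3 higher. The part of these markers in the medial values of Rbp4, Aldh1a1, Aldh1a2 and Aldh1a3, and in the endothelial values of Stra6, Aldh1a2 and Aldh1a3, was not tested.

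Of 15 endothelial markers in the endothelial layer, 0 were called lower and 1, Plvap, was called higher, with a median of -0.02. Aldh1a2 is also known from mesothelium. The 14 mesothelial markers summed to 7.32 FPKM in Poldip2-/- and 15.8 FPKM in control medial layers, with 1 of 4 called lower. This was Krt19, with 0.330 FPKM in Poldip2-/- and 1.95 FPKM in control medial layers. Its control value lay close to the control medial background of 1.51 FPKM. In endothelial layers the 14 markers summed to 133 FPKM in Poldip2-/- and 84.8 FPKM in control mice, with 0 of 5 called and a median of 0.58. Krt18, Cldn15 and Gpm6a, which are not restricted to mesothelium, held most of the endothelial sum. The more restricted markers Upk3b, Upk1b, Wt1, Msln and Lrrn4 had at most 1.28 FPKM in any group and were not above background in control medial layers. The part of mesothelial RNA in the values of Aldh1a2 was not tested. Pericyte markers were called higher for 5 and lower for 1 of 8 in the medial layer, and lower for 2 of 4 in the endothelial layer. Red blood cell genes were called lower for 3 of 5 in the medial layer, and Schwann cell markers for 0 of 4.

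**Figure D4:**
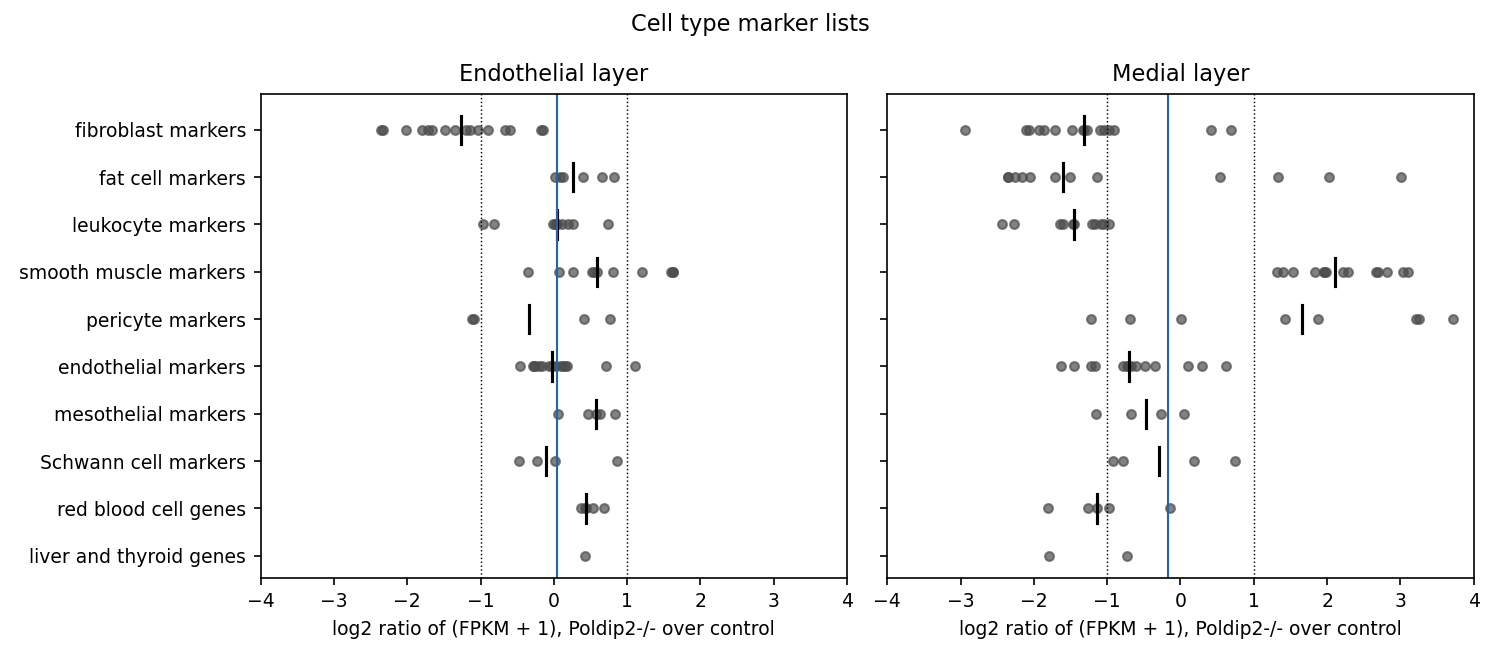
Log2 ratio of FPKM + 1, Poldip2-/- over control, of marker genes of 10 cell type lists with a mean of at least 1 FPKM (points), with list medians (black bars, lists with at least 3 such genes), the median of all genes (blue line) and 2-fold (dotted lines). In the medial layer the smooth muscle median lies at 2.10 and the fibroblast median at -1.32, and in the endothelial layer the fibroblast median lies at -1.27.

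The genes with the pattern most like each member were found by Euclidean distance of log2(FPKM + 1) over the 4 groups, among 9728 genes with at least 5 FPKM in a group. Such a distance over 4 values is a description. Stra6 had no neighbour closer than P2ry1 at 1.47, followed by Ttc9 at 1.56 and Kif26a at 1.64. P2ry1, an ADP receptor, had 12.4 FPKM in Poldip2-/- and 28.9 FPKM in control endothelial layers, and 0.824 FPKM in Poldip2-/- and 2.13 FPKM in control medial layers. The nearest genes to Aldh1a2 were Wnt5b at 0.61, Akr1c18 at 0.67 and Pla1a at 0.70, and those to Aldh1a1 were Qpct at 0.74, Gstm5 at 0.77 and Tmem119 at 0.79. Rbp4 lay nearest to Wisp2 at 0.48, F3 at 1.03 and Tgfbi at 1.61, and Aldh1a3 near Cthrc1 at 0.86 and Igf2bp2 at 0.93. The receptors and Rdh10 had close neighbours, Zfp763, 1500011B03Rik and Zfp160 for Rdh10, Gpd2, Nipal2 and Tirap for Rara, Tgs1, Naa40 and Arhgap6 for Rarb, and Ccar1, Nf2 and Golga2 for Rarg, at distances from 0.03 to 0.16.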

How the data were processed

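RNA-seq was done on mRNA of carotid endothelial and medial layers. Per the methods and labels, the authors selected mRNA with poly-T beads, prepared libraries with a kit that does not mark strand, aligned paired reads with TopHat on a Bowtie 2 index of mm9 and deposited group values as FPKM. How samples were combined is not stated. For each pair of groups the deposited table also holds the authors' mean counts after scaling by size factors (a score that depends on the pair, not raw counts), used as an alternative. In the submitters' processing notes, edgeR 3.16.5, STAR 2.5, HTSeq 0.6.1 and STAR-Fusion are also named, with no role. Positions in the table were read as GRCm38 and are given as such. Of 34490 IDs, 99.8% overlapped the GENCODE position and 72.2% had the same start and end.

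Per-sample values stand in 24 further columns headed by animal numbers, which the labels do not tie to a genotype, and 24 columns hold the authors' fold changes, p-values and calls. Neither was used. A count model had been planned and could not be run without values of mapped samples. Calls are by fold alone and carry no error. P-values, intervals and the depth of each library are therefore not given.

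The members and the 19 gene lists were chosen with earlier results of these data known. Named are the 9 members, Poldip2, other pathway genes past 2-fold in a genotype comparison (up to 6 per list), the genes that define those lists, and the 3 nearest genes to each member. Some genes that this rule names are not reported here. Alternatives were pseudocounts of 0.1, no minimum or a minimum mean of 5 FPKM, folds of 1.5 and 4, centring on the median gene or within 20 bins of gene length, protein-coding genes alone, and scaled mean counts. Computations used Python 3.11.15, numpy 2.4.6, pandas 2.3.3 and matplotlib 3.10.9. The code was checked on simulated data with large planted changes in well expressed genes. That check covers neither low values nor spread between mice and lends no weight to the calls.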

Additional observations from a re-analysis of the deposited data

How the results depend on the processing

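No member past 2-fold changed direction under any alternative. Of 144 ratios of members under the alternatives, 129 moved by less than 1.5-fold and 4 changed sign, those of Rarb in the endothelial and Rdh10 in the medial layer, all within 2-fold. At 4-fold, 1 member was called lower in each layer between genotypes, against 0.208% of all genes in the endothelial and 2.29% in the medial layer. Between layers of Poldip2-/- mice 1 was higher and 0 lower at 4-fold, against 6.93% and 5.16% of all genes. The count of lower members there was also 0 with a minimum of 5 FPKM (14.6% of all genes) and was 5 at 1.5-fold (24.9%). Between layers of control mice, 3 members were lower with a pseudocount of 0.1 (15.1% of all genes) or centring on the median gene (13.9%). At 1.5-fold (21.9% of all genes) or on scaled counts (25.1%) 4 were lower. The main setting had 1 member and 12.1% of all genes lower. Aldh1a2 joined Stra6 and Aldh1a3 as lower in the endothelial layer, 3 in all, with a pseudocount of 0.1, with 1.5-fold, with either centring and on scaled counts. Of all genes, 2.2% were lower there with that pseudocount, 3.44% at 1.5-fold and 2.26% on scaled counts. Centring on the median gene gave 1.56% and centring by length 1.47%. The medial ratio of Aldh1a2 ran from -3.41 to -2.56. With a minimum of 5 FPKM the medial calls were 2, Aldh1a1 and Aldh1a2, without Aldh1a3, against 10.1% of all genes lower. Over all genes, scaled counts shifted the median log2 ratio by 0.19 in the medial layer and by -0.39 between control layers. The share of medial calls that were higher was 33.5%, against 22.5% with no minimum, 44.7% with a minimum of 5 FPKM, 45.2% and 51.1% with centring on the median gene and by length, and 47.0% on scaled counts. Between control layers it was 62.6%, against 49.9% with a minimum of 5 FPKM and 43.1% on scaled counts. Whole-table counts moved by over 1.5 times as follows, where a changed minimum also changed the number of genes examined. In the endothelial layer 166 genes were lower, against 253 with a pseudocount of 0.1, 260 on scaled counts, 89 with a minimum of 5 FPKM, 396 at 1.5-fold and 24 at 4-fold, and 50 were higher, against 94, 100, 27, 191 and 5. Medial calls were 1877 lower, against 3325 with no minimum, 824 with a minimum of 5 FPKM, 3437 at 1.5-fold, 299 at 4-fold and 1191 with centring by length, and 944 higher, against 1885 at 1.5-fold, 172 at 4-fold and 1750 on scaled counts. As shares, lower medial calls were 14.3% of 13082 genes, 9.43% of 35275 with no minimum and 10.1% of 8129 with a minimum of 5 FPKM. Lower endothelial calls were 1.44% of 11514 genes and 1.1% of 8091 with a minimum of 5 FPKM. Between layers, Poldip2-/- mice had 1712 higher, against 1016 with a minimum of 5 FPKM and 841 at 4-fold, and 1617 lower, against 3019 at 1.5-fold and 626 at 4-fold. Control mice had 2704 higher, against 1244 with a minimum of 5 FPKM, 4198 at 1.5-fold and 876 at 4-fold, and 1613 lower, against 3354 on scaled counts, 2928 at 1.5-fold and 514 at 4-fold. No paired analysis was possible because the columns of single samples could not be mapped to groups, and leaving out a replicate was not run for the same reason.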

Other observations

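The pair of half-sites 5 bases apart that Rarb carries was found in windows of 31 genes, 15 of which were in the deposited table by symbol. The search was added after the Rarb match was seen. In the endothelial layer 3 of these 15 had a mean of at least 1 FPKM and 0 were called. In the medial layer 5 had, and 4 were called lower in Poldip2-/- mice, against 14.3% of all genes examined. They were Blvrb, a biliverdin reductase, with 48.9 FPKM in Poldip2-/- and 158 FPKM in control medial layers, Tnfsf13b, a cytokine that sustains B cells, with 5.74 FPKM in Poldip2-/- and 24.2 FPKM in control medial layers, the platelet chemokine gene Ppbp, with 0.470 FPKM in Poldip2-/- and 3.21 FPKM in control medial layers, and the prokineticin receptor gene Prokr2, with 0.0909 FPKM in Poldip2-/- and 2.02 FPKM in control medial layers. Ppbp and Prokr2 passed the minimum only through the control value, and that of Prokr2 lay close to the control medial background of 1.51 FPKM. Because the search followed the Rarb match and only 5 genes were examined in this layer, nothing is read from the 4 calls. Prokr2 had 9.04 FPKM in Poldip2-/- and 10.5 FPKM in control endothelial layers. Rarb was the fifth gene, with a medial ratio of 0.11, and Cyp26a1, which carries the pair as well, had at most 0.0515 FPKM in any group. Leukocyte and red blood cell genes were lower in the same layer, and their part in these values was not tested. A match is a description of sequence and not a site of binding.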
